A study of Mus musculus with 6 samples.

Results

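Prrx1, Prrx2, Twist1, Twist2, Osr1, Osr2, Snai1, Snai2, Zeb1 and Zeb2 encode 5 pairs of related transcription factors that are known for their work in mesenchymal cells. Their mRNA was followed in mouse muscle stem cells with and without a knockout of Pnpla2, the gene of adipose triglyceride lipase. The 10 genes were taken by symbol from the deposited table. They are 10 of the 20588 genes listed, and all 10 were among the 14025 genes tested. Twist2 and Osr2 passed the filter on low counts through the knockout group, which held their highest counts.

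Both genotypes were C57BL/6NJ mice aged 2 months. Satellite cells were sorted from their hind limb muscles, expanded in culture for 7 days and then held for 16 h in 2% horse serum, which is used to start myogenic differentiation. Poly(A) RNA gave 3 wild-type libraries (WT 1 to WT 3) and 3 libraries of knockout cells, whose titles read PKO (PKO 1 to PKO 3). What drives the knockout is not in the labels, and neither is whether each library had its own animal or culture. The p-values thus measure the spread between libraries, part of which may be technical.

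Mesenchyme is the loosely arranged embryonic tissue that gives rise to connective tissue, bone, cartilage and fat. Proteins of the SNAI, ZEB and TWIST families bind short DNA motifs called E-boxes (CANNTG), shut down epithelial genes such as the E-cadherin gene and drive the epithelial-mesenchymal transition (EMT), in which cells lose their junctions and become motile. In muscle the myogenic factors MYOD1 and MYOG also act through E-boxes. PRRX and OSR proteins mark the connective tissue of the developing limb, including the fibro-adipogenic progenitors that lie between muscle fibres.

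Of the 10 genes, Snai1 was higher in all 3 PKO libraries than in all 3 WT libraries, and Twist2 was nearly absent from WT and present in all 3 PKO libraries. Twist1 was several-fold higher in PKO 2 and PKO 3, and Osr1 was higher in both, by a wide margin only in PKO 3. Prrx1, Prrx2, Osr2, Snai2, Zeb1 and Zeb2 overlapped between the genotypes too. None passed the main test, edgeR's quasi-likelihood test with Benjamini-Hochberg adjustment over all genes at an adjusted p under 0.05. With DESeq2, Twist1, Twist2 and Snai1 passed as higher.

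The RefSeq sequence upstream of the 3 genes that DESeq2 called is shown, since these are the members whose difference between genotypes passed a test. Each is the 250 bases before the annotated start (GRCm38.p6), printed 5′ to 3′ on the plus strand, which is the strand of all 3 genes. The windows are chr2:167537945-167538194 for Snai1, chr12:33957421-33957670 for Twist1 and chr1:91801211-91801460 for Twist2. Capitals mark matches to CANNTG on either strand and to TATAAA or its reverse complement TTTATA.
Snai1: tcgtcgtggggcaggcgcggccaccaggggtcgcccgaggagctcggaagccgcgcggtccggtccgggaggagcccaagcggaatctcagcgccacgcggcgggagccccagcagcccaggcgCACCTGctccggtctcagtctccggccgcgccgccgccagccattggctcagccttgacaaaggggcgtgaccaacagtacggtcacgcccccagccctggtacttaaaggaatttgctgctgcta
Twist1: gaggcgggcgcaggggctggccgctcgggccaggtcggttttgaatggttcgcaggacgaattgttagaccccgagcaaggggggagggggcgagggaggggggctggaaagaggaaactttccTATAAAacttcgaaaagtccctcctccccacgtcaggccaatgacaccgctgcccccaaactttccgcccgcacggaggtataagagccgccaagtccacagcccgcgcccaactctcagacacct
Twist2: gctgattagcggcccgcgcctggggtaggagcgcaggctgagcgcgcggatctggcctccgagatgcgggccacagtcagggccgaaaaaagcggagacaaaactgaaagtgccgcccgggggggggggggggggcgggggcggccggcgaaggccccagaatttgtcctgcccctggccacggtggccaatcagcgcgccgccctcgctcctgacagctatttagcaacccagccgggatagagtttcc

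The Snai1 window held 1 E-box, CACCTG, starting 126 bases before the start of the gene. The Twist1 window held TATAAA, also starting 126 bases before the start, and no CANNTG. The Twist2 window held neither. CANNTG occurred in 66.2% of 32851 mouse windows of the same length, CAGGTG or CACCTG (a subset of CANNTG) in 17.2%, and TATAAA or TTTATA in 12.4%. The 3 windows had GC contents of 70% for Snai1, 62.4% for Twist1 and 68.8% for Twist2, against a median of 52.4%. None of these motifs was found in the windows of Prrx1, Prrx2 and Zeb2. The Prrx1 window lay before a transcript start 60 bases from the deposited gene start, and the Prrx2 window before one 10395 bases away. Zeb2 had several windows, before transcript starts 47 to 7118 bases away. Osr1, Osr2, Snai2 and Zeb1 are named only. A match describes letters and not a bound site.

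The targeted gene Pnpla2 (chr7:141455198-141460743, plus strand) was measured at 21.1, 38.5 and 33.7 CPM (reads relative to the TMM-adjusted library total) in WT 1 to WT 3. In PKO 1 to PKO 3 it was 8.47, 16.0 and 15.5 CPM. The groups did not overlap: the WT mean was 31.1 ± 8.96 CPM and the PKO mean 13.3 ± 4.20 CPM (SD, n = 3). The log2 fold change, PKO over WT, was -1.22 ± 0.31 (SE), with an edgeR adjusted p of 0.19, a DESeq2 adjusted p of 0.00796 and an exact two-sided permutation p of 0.1, the smallest that 3 against 3 libraries allow.

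Total counts ran from 15580176 to 18839151 per library. WT 1 lay closer to PKO 1 than to either other WT library: the chi-square per degree of freedom over genes was 17.5 between WT 1 and PKO 1, 59.6 between WT 1 and WT 2, and 6.54 between WT 2 and WT 3. No pair of libraries agreed within sampling noise. The labelled cell type was checked on Myod1, Myog and Pax7, which were above 0 in all 6 libraries. Myod1 was at 1148 to 1852 CPM and Myog at 2239 to 2799 CPM. Pax7, the satellite cell factor, was at 41.2 to 114 CPM.

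Read per gene length, 6 of the 10 factors were expressed above 10 FPKM (deposited fragments per kilobase, scaled to the mapped total) on average over the 6 libraries. Zeb1 was highest with a mean of 27.9 FPKM, at the 87.7th percentile of listed genes, followed by Prrx2 at 20.9, Snai2 at 19.8, Snai1 at 19.6, Prrx1 at 19.5 and Zeb2 at 18.9 FPKM. The last 5 neighbours in that order do not differ beyond their spread between libraries. Twist1 at 3.76 and Osr1 at 2.34 FPKM stood well below. Twist2 at 0.621 and Osr2 at 0.384 FPKM were the lowest. Summed over the 10 genes the FPKM came to 125, 112 and 115 in WT 1 to WT 3, below the 146, 145 and 159 of PKO 1 to PKO 3. The largest part was Prrx2 in PKO 1 at 44.3 FPKM, Zeb1 in PKO 2 at 40.1 and Prrx1 in PKO 3 at 28.3. Each of these genes overlapped between the genotypes, so the sum does not show a rise shared by the members. No share over all genes was computed for such a sum.

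**Figure D1:**
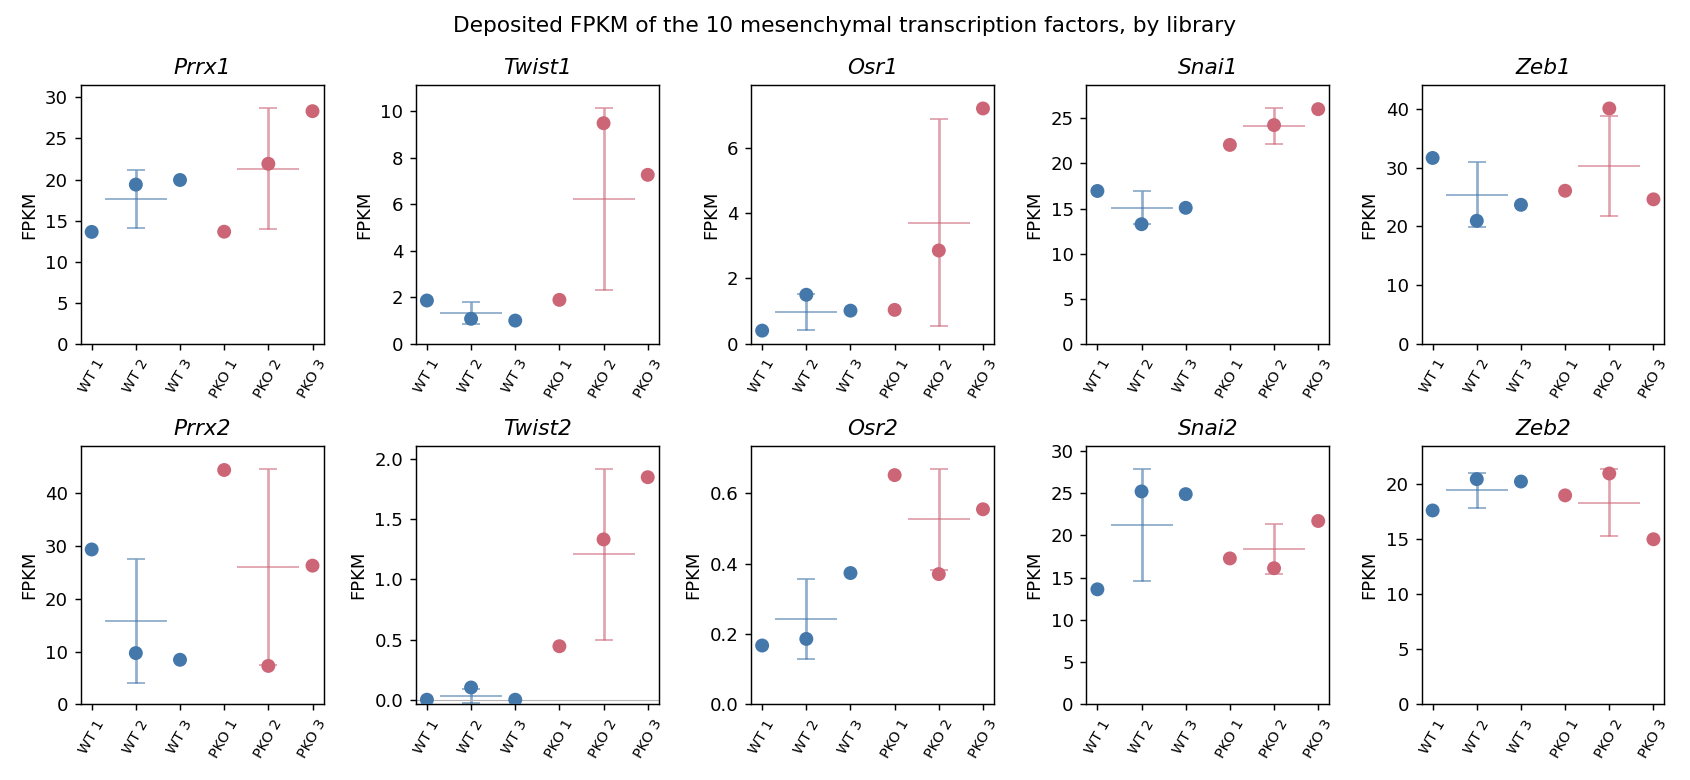
Deposited FPKM of each of the 10 factors (y axis, linear, with its own range in each panel) in WT 1 to WT 3 (blue points) and PKO 1 to PKO 3 (red points); horizontal bars are group means and vertical bars SD, n = 3. The PKO points of Snai1 and Twist2 all lie above the WT points, while Snai2 and both Zeb genes overlap between genotypes.

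SNAI1 and SNAI2 (also called Slug) are zinc finger repressors that bind E-boxes and recruit histone deacetylases, and in mouse myoblasts they are known to compete with MYOD1 for some of them. Snai1 (ENSMUSG00000042821, chr2:167538195-167542814, plus strand) had 476, 335 and 456 reads in WT 1 to WT 3, against 669, 678 and 795 reads in PKO 1 to PKO 3. The level was 28.1, 21.9 and 25.0 CPM in WT, against 35.7, 38.6 and 40.8 CPM in PKO. All 3 PKO libraries lay above all 3 WT libraries, and the spread within each group was small. The WT mean was 25.0 ± 3.09 CPM and the PKO mean 38.3 ± 2.58 CPM (SD, n = 3). The log2 fold change was 0.62 ± 0.14 (SE), a 1.53-fold difference, with an edgeR adjusted p of 0.180 (unadjusted 0.0030) and a DESeq2 adjusted p of 0.0180. With 1 library left out at a time, Snai1's edgeR adjusted p ran from 0.038 without WT 1, a fit that called 1000 genes in all, to 0.566 without WT 3.

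Snai2 did not share this pattern. Snai2 (ENSMUSG00000022676, chr16:14705852-14709395, plus strand) measured 28.3, 52.2 and 51.5 CPM in WT 1 to WT 3, against 35.0, 32.1 and 42.6 CPM in PKO 1 to PKO 3. WT 1 was the lowest of all 6 libraries and WT 2 and WT 3 the highest, so the groups overlapped. The log2 fold change was -0.27 ± 0.25 (SE), with edgeR's adjusted p at 0.608. By FPKM, the ratio of Snai1 to Snai2 was 1.25, 0.527 and 0.607 in WT 1 to WT 3, against 1.28, 1.51 and 1.20 in PKO 1 to PKO 3. Snai1 exceeded Snai2 in all PKO libraries and in WT 1.

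TWIST1 and TWIST2 are basic helix-loop-helix proteins that pair with E proteins, and TWIST1 is known in mouse cells to hold back MYOD1. Twist2 (ENSMUSG00000007805, chr1:91801461-91848028, plus strand) had 0, 4 and 0 reads in WT 1 to WT 3, against 21, 58 and 88 reads in PKO 1 to PKO 3. In CPM these were 0, 0.262 and 0 in WT, against 1.12, 3.30 and 4.52 in PKO. Every PKO library was above every WT library, and the WT level rested on 4 reads of WT 2. The PKO to WT ratio of the summed, scaled counts was 37.8, with an exact 95% interval from 14.5 to 140 that covers counting error only. Twist2 had an edgeR log2 fold change of 5.09 ± 1.06 (SE), an edgeR adjusted p of 0.179 (unadjusted 0.00183) and a DESeq2 adjusted p of 0.000179. The authors' deposited table gives Twist2 a log2 fold change of 2.22 with an adjusted p of 0.000111.

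Twist1 (ENSMUSG00000035799, chr12:33957671-33959817, plus strand) had 52, 27 and 30 reads in WT 1 to WT 3, against 57, 264 and 221 reads in PKO 1 to PKO 3. The level was 3.07, 1.77 and 1.64 CPM in WT and 3.04, 15.0 and 11.3 CPM in PKO. PKO 2 and PKO 3 stood far above the other libraries, whereas PKO 1 was level with WT 1. By FPKM, PKO 1 at 1.89 lay just above WT 1 at 1.86, so whether the groups overlap depends on the scaling. The log2 fold change was 2.18 ± 0.59 (SE), 4.52-fold, with an edgeR adjusted p of 0.190 (unadjusted 0.00777) and a DESeq2 adjusted p of 0.00481. Twist1 reached 1.55 on the log2 scale in the authors' deposited table, with an adjusted p of 0.00497. Without PKO 1 the edgeR adjusted p was 0.0137 for Twist1 and 0.0299 for Twist2, with log2 fold changes of 2.61 and 5.48, in a fit that called 737 genes in all. Without any other single library it lay between 0.0649 and 0.566 for both genes.

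OSR1 and OSR2 are zinc finger proteins of the odd-skipped family, and in mouse embryos Osr1 marks the cells that become limb connective tissue and fibro-adipogenic progenitors. Osr1 (ENSMUSG00000048387, chr12:9574442-9581499, plus strand) measured 0.827, 3.08 and 2.08 CPM in WT 1 to WT 3, against 2.08, 5.63 and 14.0 CPM in PKO 1 to PKO 3. PKO 3 was the highest by a wide margin, while PKO 1 lay within the WT range. The log2 fold change was 1.86 ± 0.75 (SE), and the adjusted p was 0.284 in edgeR (unadjusted 0.0410) and 0.0863 in DESeq2. Without PKO 3, Osr1's log2 fold change was 0.95, with an unadjusted edgeR p of 0.21. Osr2 (ENSMUSG00000022330, chr15:35296098-35303304, plus strand) had only 5, 5 and 12 reads in WT 1 to WT 3, against 21, 11 and 18 reads in PKO 1 to PKO 3. PKO 2 lay within the WT range of 0.295 to 0.657 CPM. For Osr2 the log2 fold change was 1.04 ± 0.49 (SE), and the edgeR adjusted p was 0.342.

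PRRX1 and PRRX2 are paired-related homeodomain proteins of limb and face mesenchyme. Prrx1 (ENSMUSG00000026586, chr1:163245119-163313710, minus strand) measured 91.0, 129 and 133 CPM in WT 1 to WT 3, against 88.8, 140 and 179 CPM in PKO 1 to PKO 3. The lowest libraries were WT 1 and PKO 1, and the groups overlapped. Prrx1 had a log2 fold change of 0.21 ± 0.27 (SE) and an edgeR adjusted p of 0.714, and without PKO 3 the value was -0.039. Prrx2 (ENSMUSG00000039476, chr2:30834972-30881251, plus strand) measured 43.2, 14.3 and 12.4 CPM in WT 1 to WT 3, against 63.6, 10.3 and 36.5 CPM in PKO 1 to PKO 3. It was high in WT 1, PKO 1 and PKO 3 and low in the other libraries, whatever their genotype. Its log2 fold change was 0.66 ± 0.70 (SE), with an edgeR adjusted p of 0.654, and ran from 0.018 without PKO 1 to 1.46 without WT 1. The FPKM ratio of Prrx1 to Prrx2 was 0.465 in WT 1 and 0.308 in PKO 1, and between 1.08 and 3.01 in the remaining 4 libraries.

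ZEB1 and ZEB2 carry paired zinc finger clusters and a homeodomain, repress epithelial genes and, for ZEB1, muscle genes in mouse myoblasts. Zeb1 (ENSMUSG00000024238, chr18:5591860-5775467, plus strand) measured 188, 124 and 140.4 CPM in WT 1 to WT 3, against 151, 229 and 138 CPM in PKO 1 to PKO 3. The groups overlapped, with WT 1 and PKO 2 highest. Zeb1's log2 fold change was 0.19 ± 0.24 (SE), with edgeR's adjusted p at 0.699, and without PKO 2 it was -0.053. Zeb2 (ENSMUSG00000026872, chr2:44983634-45117395, minus strand) measured 164, 190.0 and 188 CPM in WT 1 to WT 3, against 172, 187 and 132 CPM in PKO 1 to PKO 3. PKO 3 was the lowest and the remaining 5 libraries lay close together. Zeb2 showed a log2 fold change of -0.14 ± 0.16 (SE) and an edgeR adjusted p of 0.668. Zeb1 overlaps Gm10125 on the opposite strand, which was listed with 48 to 141 reads per library, and Gm16147 with 0 to 8 reads, and Zeb2 overlaps Zeb2os with 3 to 11 reads. Prrx1 overlaps Gm20471 with 0 to 5 reads and Gm26523 with 0 to 7 reads. Twist2, with 4 reads in all WT libraries, overlaps RP23-5H15.1 on the opposite strand with 0 to 8 reads and RP23-5H15.2 on the same strand with 0 to 4 reads, so its few WT reads are uncertain. The strand setting of the counting is not given in the sources used here.

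Over the 10 genes, 0 passed edgeR's adjusted threshold, as did 0% of all 14025 genes tested. At an unadjusted edgeR p under 0.05, 4 were higher in PKO (Twist1, Twist2, Osr1 and Snai1) and 0 lower, against 10.2% of all genes tested that were higher by this rule. Osr1 did not meet it without WT 1, WT 3, PKO 2 or PKO 3. DESeq2 called 3 of 10 higher, against 4.73% of the 16192 genes to which it gave an adjusted p. The authors' deposited table, which rests on the same libraries and is no separate evidence, called 3 higher, against 4.65% of its genes. The PKO libraries lay above all WT libraries for 2 genes, Twist2 and Snai1, a pattern seen in 11.8% of genes tested. The log2 fold change was above 0 for 8 of 10 genes, against 48.3% of all genes, and its median was 0.64, against -0.02 over all genes tested. Twist2 is part of each of these counts of higher genes, and Osr2 of the last. Both passed the filter through the PKO group, which favours a value above 0. Leaving Twist2 aside, the DESeq2 calls were Twist1 and Snai1, and only Snai1 had all PKO libraries above all WT libraries.

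**Figure D2:**
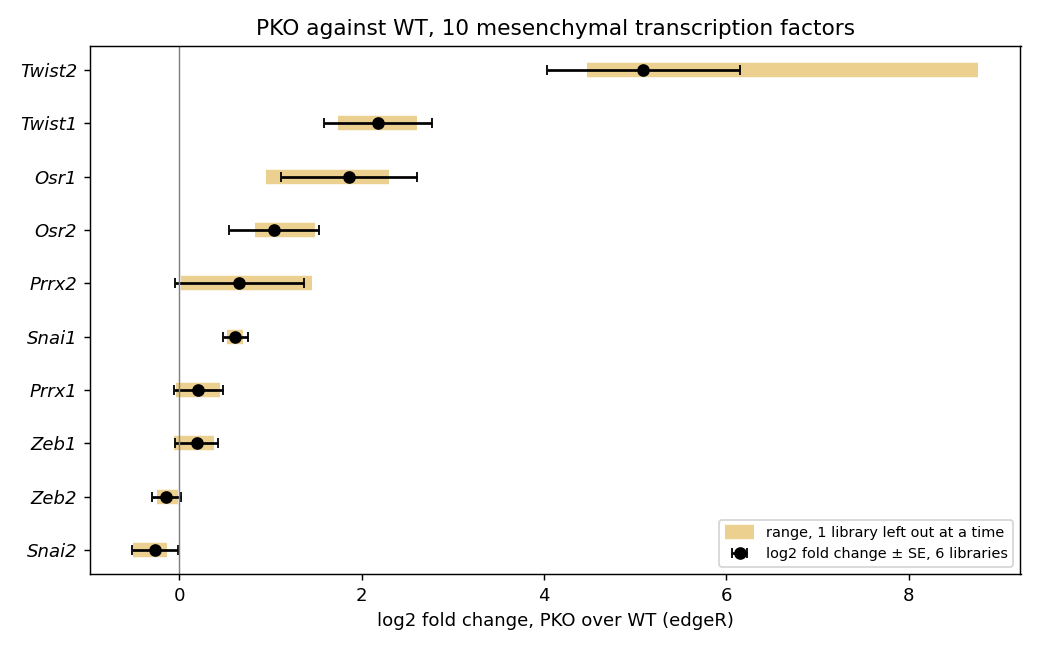
Log2 fold change, PKO over WT, from edgeR (x axis) for each of the 10 factors, as black points with SE over 6 libraries; yellow bars give the range when 1 library at a time was left out. Twist2 ranges from 4.48 to 8.76, its upper end being the fit without WT 2 in which all remaining WT reads are 0 and the value depends on the prior count; only the bars of Prrx1 and Zeb1 cross 0.

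With WT 1 and PKO 1 both left out, edgeR gave 3 of the 10 genes an adjusted p under 0.05 as higher, against 10.2% of the 14296 genes tested there. They were Twist1 at a log2 fold change of 2.95 (adjusted p = 0.00344), Twist2 at 4.93 (0.0167) and Snai1 at 0.76 (0.0231). With PKO 2 and PKO 3 left out instead, PKO 1 alone stood against WT, and the log2 fold change was 0.51 for Snai1, 3.67 for Twist2, 0.49 for Twist1 and 0.06 for Osr1. The Prrx1 value was then -0.41. These 2 choices of libraries were made with the distances between libraries known.

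Library profiles, the log2 CPM of a gene minus its own mean over the 6 libraries, differed within families. Zeb1 and Zeb2 were the closest pair of members, with a root mean square difference of 0.327 over 6 libraries. Snai1 and Zeb1 followed at 0.332 and Prrx1 and Snai2 at 0.340. The SDs of Zeb1 and Zeb2 over the libraries were only 0.299 and 0.183 on this scale. Their small difference can thus come from narrow ranges alone and does not show a shared pattern. Prrx2 and Twist2 were the farthest apart at 2.31. In PKO 1, Prrx2 was at 1.41 above its mean while Prrx1 was at -0.47. Snai2 and Prrx1 were both low in WT 1, at -0.47 and -0.44.

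**Figure D3:**
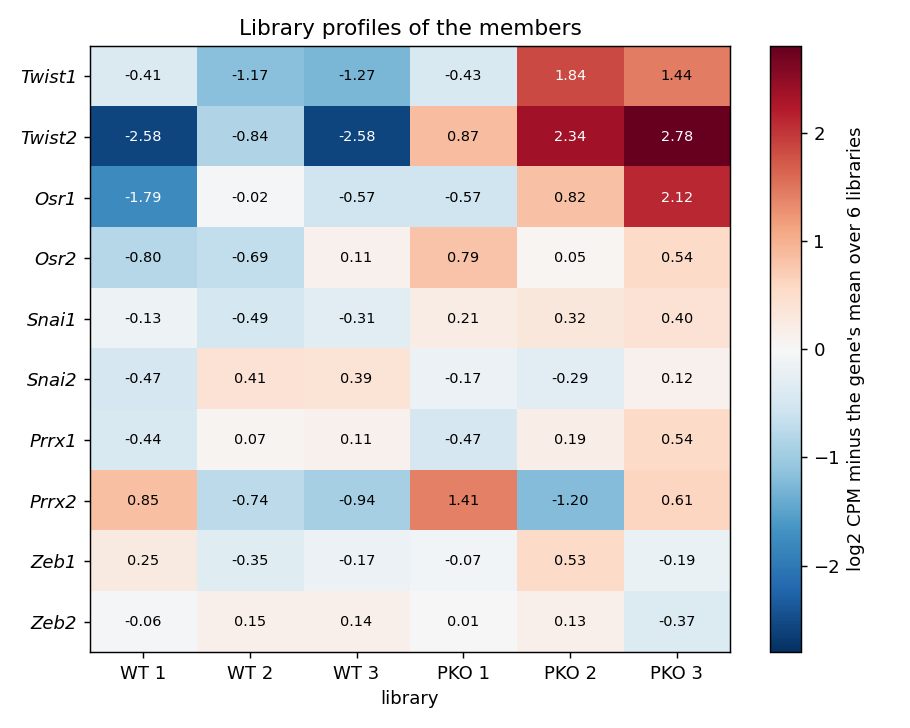
Heat map of log2 CPM minus the gene's mean over 6 libraries (colour and printed value) for the 10 factors (rows) in WT 1 to WT 3 and PKO 1 to PKO 3 (columns). Twist1, Twist2 and Osr1 are highest in PKO 2 and PKO 3, and Prrx2 is highest in PKO 1, at 1.41, and WT 1, at 0.85.

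The genes with the most similar profiles, by the root mean square difference over the 6 libraries among 12232 protein-coding genes, were named for each factor with a mean of at least 1 CPM. For Twist1 the nearest was Loxl1, a lysyl oxidase of elastic fibres, at 0.140, then Acpp at 0.189 and Prickle2 at 0.201. Snai1 was nearest to Pnrc1 at 0.0522, Degs1 at 0.0528 and Stx3 at 0.0598. For Snai2 these were Cks1b, a cyclin-dependent kinase subunit, at 0.0415, Ube2s at 0.0503 and Npm1 at 0.0540. Genes with a narrow range over libraries reach small differences more easily. The profile of Prrx1 was nearest to Ptplb at 0.0963, Pmm1 at 0.103 and Ap1s1 at 0.111, and that of Prrx2 to Tmem151a at 0.199, Tmem119 at 0.235 and Lfng at 0.243. Zeb1 lay nearest to Sec24d at 0.0528, Gtdc1 at 0.0552 and Fbxw7 at 0.0742, and Zeb2 to Gon4l at 0.0270, Ubap2l at 0.0370 and Nsun4 at 0.0371. For Twist2, whose own SD over the libraries was 2.16 on this scale, they were Notch4 at 0.628, Prl2c3 at 0.629 and Kcnab1 at 0.715. For Osr1, with an SD of 1.23, they were Csrp2 at 0.440, Clmp at 0.445 and Tkt at 0.455.

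Summed markers of fibro-adipogenic progenitors and fibroblasts were highest in PKO 2 and PKO 3, as were Twist1, Twist2 and Osr1. Osr2 was highest in PKO 1 at 1.12 CPM, and among the markers so was Pdgfrl at 5.76 CPM. All 22 of these stromal markers were listed and 16 were detected in every library. Their summed level was 781, 534 and 572 CPM in WT 1 to WT 3, against 979, 4017 and 2619 CPM in PKO 1 to PKO 3. The defining markers Pdgfra, Dcn and Ly6a were above 0 in every library, with a summed level of 3.47 to 6.29 CPM over the WT libraries and 10.2 to 208 CPM over the PKO libraries. All 17 stromal markers that were tested had a log2 fold change above 0, against 48.3% of all genes tested. Their median was 3.66, and DESeq2 called 14 of them higher, beside its share of 4.73% over all genes. Some of the 17 passed the filter on low counts through the PKO libraries, which favours a value above 0. Among these were C3, at 0 to 0.591 CPM in the WT libraries, and Ly6a, at 0.219 to 1.48 CPM. The part of the stromal markers in the differences of Twist1, Twist2 and Osr1 was not tested. In bulk RNA, more cells of a type and more RNA per cell cannot be told apart.

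Twist1 plus Twist2 summed to 3.07, 2.03 and 1.64 CPM in WT 1 to WT 3, against 4.16, 18.3 and 15.9 CPM in PKO 1 to PKO 3. Osr1 plus Osr2 summed to 1.12, 3.41 and 2.74 CPM in WT and 3.20, 6.26 and 14.9 CPM in PKO. Both sums were highest in PKO 2 and PKO 3, the libraries with the most stromal marker RNA. Snai1 plus Snai2 stayed between 56.4 and 83.4 CPM in all 6 libraries. Prrx1 plus Prrx2 lay between 134 and 152 CPM in 5 libraries and at 215 CPM in PKO 3. Zeb1 plus Zeb2 ranged from 270.2 to 416 CPM. Snai1 itself was at 35.7 CPM in PKO 1, against 38.6 and 40.8 CPM in PKO 2 and PKO 3.

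**Figure D4:**
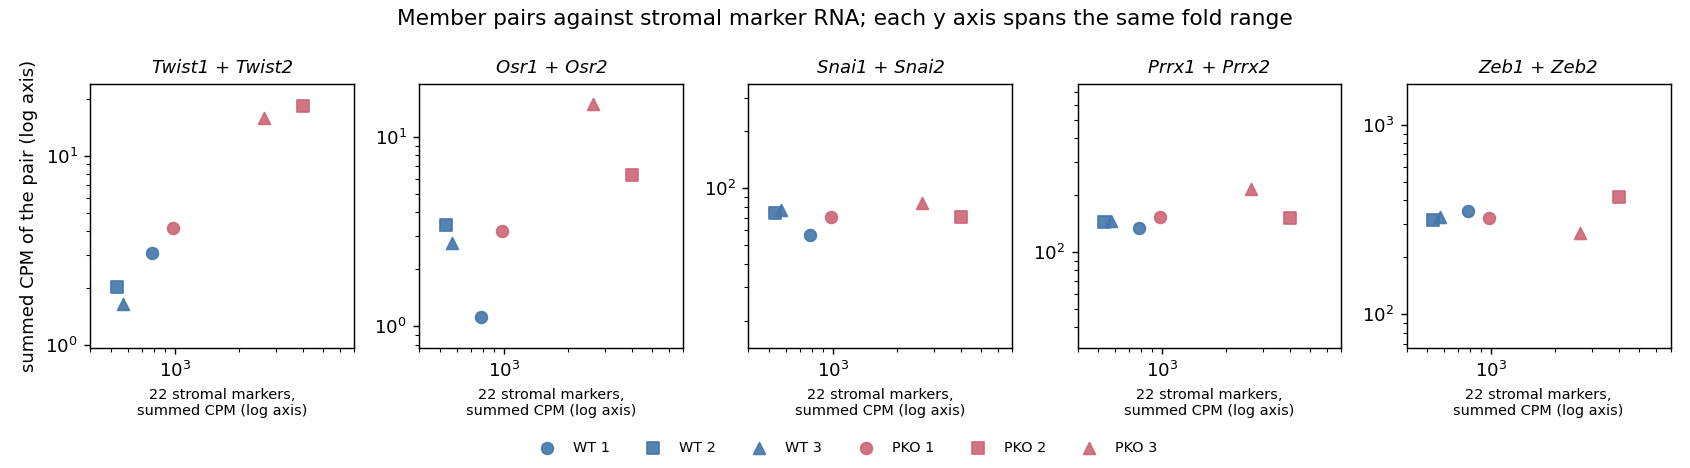
Summed CPM of each pair of factors (y axis, log) against the summed CPM of 22 stromal markers (x axis, log), 1 point per library, WT in blue and PKO in red, with the replicate number as the point's shape. The TWIST sum is highest in PKO 2 and PKO 3, at 18.3 and 15.9 CPM, where the stromal marker sum is also highest. The SNAI sum stays between 56.4 and 83.4 CPM.

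Markers of the other cell types that a muscle sort could hold were read in the same way. Over all genes, 48.3% of those tested had a log2 fold change above 0. DESeq2 called 4.73% of 16192 genes higher, and 151 genes lower. Summed myogenic markers were at 18769 to 23432 CPM in the WT libraries and 13851 to 20433 CPM in the PKO libraries. All 15 had a log2 fold change below 0, with a median of -0.24, and DESeq2 called 1 lower. Pericyte and smooth muscle markers summed to 1328 to 2173 CPM in WT libraries and 1969 to 2398 CPM in PKO libraries, most of it Acta2. Of the 8 tested, 6 were above 0 with a median of 1.38, and DESeq2 called 4 of the 11 listed higher, including Pdgfrb at 4.19 ± 1.05 (SE, log2; DESeq2 adjusted p = 0.00708). Of the defining markers, Kcnj8 was at 0 in WT 1 and WT 3, Abcc9 was at -0.27, and Rgs5 was at 2.52 ± 0.94 with overlapping groups. DESeq2 called none of them. Notch3 was at -0.86 ± 0.30 and was not called either. Endothelial markers summed to 12.5 to 15.5 CPM in WT libraries and 14.8 to 22.5 CPM in PKO libraries, with 7 of 8 tested above 0, a median of 1.26 and 2 DESeq2 calls higher. Leukocyte markers summed to 7.60 to 8.03 CPM in WT libraries and 14.1 to 20.2 CPM in PKO libraries, with 4 of 5 tested above 0, a median of 0.69 and 1 DESeq2 call higher. The leukocyte gene Ptprc was at 0 in WT 1 and PKO 1. Tenocyte markers summed to 268 to 295 CPM in WT libraries and 258 to 381 CPM in PKO libraries, with 3 of 5 tested above 0, a median of 0.44, 1 DESeq2 call higher, and Tnmd at 0 in WT 2, WT 3 and PKO 2. Schwann cell markers summed to 384 to 516 CPM in WT libraries and 216 to 432 CPM in PKO libraries, with 1 of 4 tested above 0, a median of -0.28, 0 DESeq2 calls, and Sox10 at 0 in WT 1 and PKO 1. Adipocyte markers, 3 of 8 listed, summed to 1.53 to 3.13 CPM in WT libraries and 5.33 to 11.3 CPM in PKO libraries, with 1 DESeq2 call higher. Their part in the members' values was not tested.

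The genes that these factors are known to act on or with were described by lists, and edgeR called 0 genes in each. DESeq2's counts below stand beside its share of 4.73% higher over all genes. Among epithelial genes that SNAI, ZEB and TWIST repress, 25 of 26 were listed and 9 passed the filter, 6 with a log2 fold change above 0 and 3 below, with a median of 0.11. DESeq2 called 1 higher, the tight junction gene Cldn4 at 1.52 ± 0.47 (SE, log2; DESeq2 adjusted p = 0.0317), and 1 lower, the polarity gene Llgl2 at -1.45 ± 0.38 (0.0413). The keratin genes Krt18 at 2.08 and Krt19 at 0.02 were not called. All epithelial genes listed summed to 16.0 to 21.9 CPM over the WT libraries and 19.7 to 27.5 CPM over the PKO libraries. Of 24 mesenchymal EMT genes, all tested, 20 were above 0 and 4 below, with a median of 1.49, and DESeq2 called 13 higher and 0 lower. They included Mmp14, a membrane-bound matrix metalloproteinase, at 2.12 ± 0.46 (DESeq2 adjusted p = 7.68e-05), and Loxl2, a lysyl oxidase, at 5.86 ± 1.21 (0.000189). The EMT genes with the highest levels were Lgals1 at -0.27, Vim at -0.22 and S100a4 at -0.05, none of them called. The EMT list shares Col1a1, Col1a2, Col3a1 and Thy1 with the stromal markers.

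**Figure D5:**
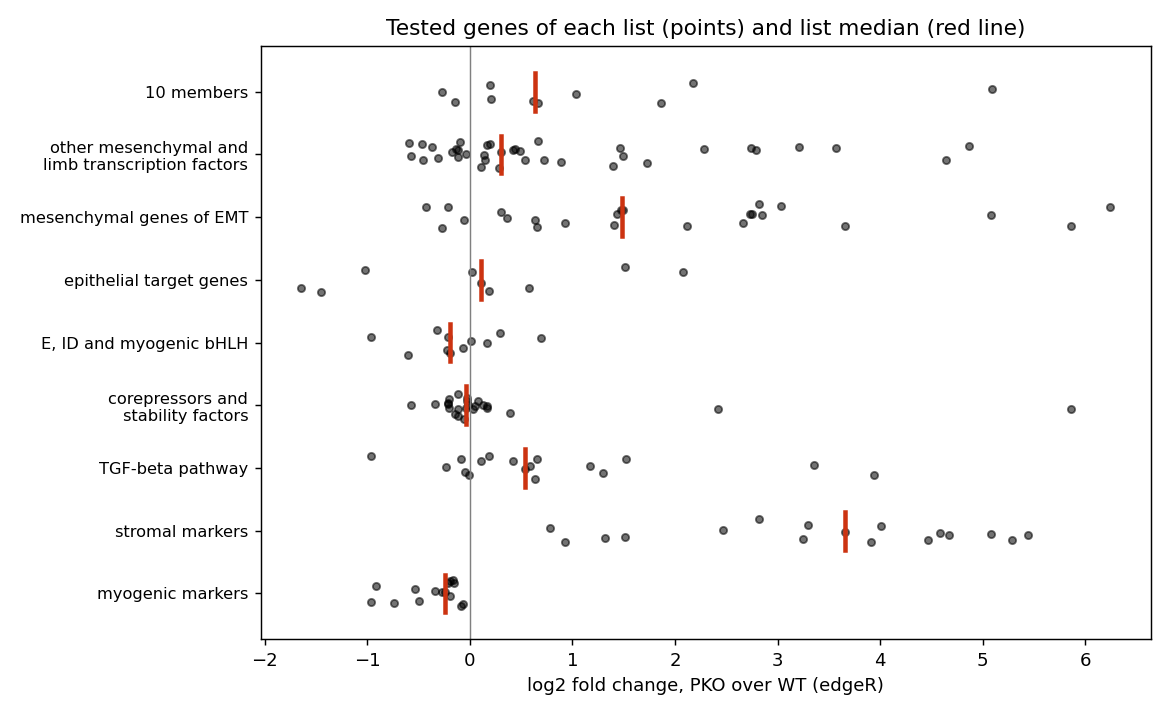
Log2 fold change, PKO over WT, from edgeR (x axis) of every tested gene (points) in each list of genes (rows), with the list's median as a red line. The EMT genes have a median of 1.49 and the 10 factors one of 0.64, and the E, ID and myogenic basic helix-loop-helix genes one of -0.19.

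Among other transcription factors of mesenchyme and limb, 49 of 50 were listed and 37 tested, 25 above 0 and 12 below, with a median of 0.30. DESeq2 called 12 of the 49 listed higher and 0 lower, among them Pitx1 and Meox2, which had not passed edgeR's filter. The calls with the smallest edgeR p were Ebf2, a factor of mesenchymal and fat cell precursors, at 4.87 ± 1.04 (DESeq2 adjusted p = 8.44e-06), and Aebp1, of connective tissue, at 3.57 ± 0.77 (0.0020). Ebf2 was at 0.0591 to 0.547 CPM in the WT libraries and passed edgeR's filter through the PKO libraries. The tendon factor Scx, at -0.12, Tbx15 at -0.04 and Runx1 at -0.57 were the highest by level and were not called. In the list, 8 tested genes had all PKO libraries above all WT libraries, against 11.8% of all genes tested. Another 3, Runx1 among them, had all below, a direction for which no share over all genes was computed. For the E proteins, ID proteins and myogenic factors, 4 of 11 were above 0 and 7 below, with a median of -0.19, and DESeq2 called 0. Myog was at -0.19, Myod1 at -0.07 and Id3 at 0.17. Those with the smallest p were the myogenic factor Myf5 at -0.96 ± 0.51 (edgeR adjusted p = 0.381) and the E protein gene Tcf12 at -0.22 ± 0.13.

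Corepressors and stability factors of SNAI and ZEB had a median of -0.03, with 9 of 24 above 0 and 15 below. The DESeq2 calls among them were 2 of 24 higher, Loxl2, given above, and Loxl3 at 2.42 ± 0.61 (DESeq2 adjusted p = 0.000463), both lysyl oxidases that are known to bind SNAI1. Ctbp1 was at -0.11, Smarca4 at -0.21 and Hdac1 at 0.08. In the TGF-beta pathway, which is known to induce SNAI, ZEB and TWIST genes, 12 of 17 genes were above 0 and 5 below, with a median of 0.53, and DESeq2 called 5 higher and 0 lower. Smad7, the inhibitor that TGF-beta itself induces, was at 1.30 ± 0.19 (DESeq2 adjusted p = 9.05e-06), and Ltbp2, a latent TGF-beta binding protein family member of the matrix, at 3.94 ± 0.80 (0.00106). Thbs1 was at 0.63, Ski at 0.19 and Tgfb3 at -0.23, with no call.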

How the data were processed

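The deposited counts are whole reads per gene and library. Per the series text and the submitters' processing notes, the authors mapped 150 bp read pairs with TopHat2 to GRCm38 (mm10) and counted them with HTSeq 0.6.1. The sources used here do not give the annotation version or the strand setting. The authors computed FPKM from the counts and a gene length; FPKM served for levels across genes and for showing the members by library, and was not tested. The authors' log2 fold changes and p-values were copied from the deposited table; the series text names both DESeq2 and edgeR for them. The 6 deposited normalized columns were not used.

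Counts were tested with edgeR 4.0.16 in R 4.3.3 (filterByExpr, TMM, robust quasi-likelihood fit, genotype only; log2 CPM with a prior count of 2), with Benjamini-Hochberg adjustment over all 14025 genes tested. Genes low in WT, such as Twist2, Osr2, C3, Ly6a and Ebf2, passed filterByExpr through the PKO libraries, which favours a log2 fold change above 0. The SE given with an edgeR log2 fold change is its absolute value divided by the square root of the quasi-likelihood F statistic. DESeq2 1.42.0 and limma-voom (limma 3.58.1) were alternatives. Scripts were tested on simulated data. The members and lists were chosen with earlier results of these data known. Named genes are the 10 members, Pnpla2, the 3 genes nearest to each member by library profile, and, per list, those of the highest mean FPKM and the smallest p. Other genes are named where they belong to a count of 5 or fewer, mark a cell type, overlap a member or lie in 2 lists. Stromal, myogenic, endothelial, leukocyte, pericyte, tenocyte, Schwann and adipocyte markers are given as summed CPM. Coordinates are those of the deposited table.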

Additional observations from a re-analysis of the deposited data

How the results depend on the processing

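Over all genes, the edgeR test called 0 (1426 higher and 891 lower at an unadjusted p under 0.05; limma-voom also called 0). DESeq2 called 917 genes and 3 members, with Pnpla2 at -1.23. Leaving out 1 library at a time gave 0 to 1000 genes (1000 without WT 1 and 737 without PKO 1), 0 to 2 members called, 3 to 4 members higher at an unadjusted p under 0.05, and a Pnpla2 log2 fold change of -1.44 to -0.98. Without WT 1 and PKO 1 there were 2266 genes, 3 members and Pnpla2 at -1.20. Without PKO 2 and PKO 3, 1 member (Snai1) was higher at an unadjusted p under 0.05; that fit holds 1 PKO library, which is assumed to vary like the WT libraries. With the replicate block, 1 gene was called and no member. Same-numbered libraries had correlations of deviations of 0.103, -0.025 and 0.129, so the numbers were not taken to pair them.

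Of the 10 members' log2 fold changes, 8 kept their direction under all alternatives run. Zeb1 ran from -0.053 to 0.38 and Prrx1 from -0.039 to 0.44 with 1 library left out, and Prrx1 was -0.41 without PKO 2 and PKO 3. The cause was not tested. Over the alternatives with at least 2 libraries a group, adjusted p ran from 0.00344 to 0.566 for Twist1, 0.000179 to 0.566 for Twist2 and 0.0180 to 0.566 for Snai1, each below 0.05 in 3. A mean of at least 1 CPM left Osr2 out. With 4 WT reads of Twist2 and 22 of Osr2, depth limits both.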
